A study of Setaria viridis with 9 samples.

Results

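Genes of the circadian clock and of light signalling were followed in leaf RNA of Setaria viridis, a small C4 grass used as a laboratory relative of maize and sorghum. They were taken from the deposited gene table by words in its descriptions, among them CCA1, REVEILLE, LNK, PRR with a digit, GIGANTEA, adagio, phytochrome, cryptochrome, phototropin, CONSTANS, SPA1, COP1 and HY5. The words picked 78 of 17987 genes. In 15 of these the letters only sat inside another word: 4 K+ efflux antiporters, 3 silicon efflux transporters, 3 auxin efflux carriers and 2 POLLUX ion channels carry "lux", and 3 YUCCA10 enzymes of auxin synthesis carry "CCA1". The other 63 genes comprised 16 core clock genes, 9 photoreceptors, 23 light signalling genes, 13 CONSTANS-like genes and 2 flowering regulators. All 78 passed the filter on low counts, which kept 17970 genes in all.

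Polyadenylated RNA came from leaf discs of the youngest fully expanded leaf of plants of the cultivar ME034V-1, 3 to 4 weeks after sowing. There were 3 replicates, called biological in the labels, of each of 3 genotypes: gene-edited plants with null PGR5 (pgr5), gene-edited plants with null NdhO (ndhO), and wild type (WT). PGR5, a small protein of the thylakoid, and NdhO, part of the chloroplast NDH complex, serve the separate routes by which electrons cycle around photosystem I. All plants grew in a 16 h photoperiod at 380 µmol m-2 s-1, with 28 °C days and 22 °C nights, and the discs were sampled in daylight. The sources used here do not give the hour of sampling, the edited alleles or the number of independent edited lines. The design asks what the loss of either route does to leaf transcripts.

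A clock in a plant cell is a loop of transcription factors that repress one another in turn through the day. In Arabidopsis, the MYB factors CCA1 and LHY peak around dawn, the PRR proteins follow one after the other from morning to evening, and GIGANTEA and the evening complex of LUX, ELF3 and ELF4 close the loop. Light sets the phase through phytochromes for red light and through cryptochromes and adagio proteins for blue light, and COP1, SPA proteins, HY5 and PIF factors pass the light signal on to genes. Each sample therefore shows the level of each gene when its discs were taken, not the rhythm. Whether all samples were taken at the same hour is unknown.

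Total counts ran from 11606570 to 18837265 per library, and edgeR put the common coefficient of variation between replicates at 0.383. Neither edited gene had a transcript level that followed the labels. NdhO ranged from 20.5 to 421 CPM (counts scaled to library size) in libraries labelled pgr5, from 245 to 446 CPM in those labelled ndhO and from 44.3 to 617 CPM in those labelled WT. PGR5 ranged from 250 to 389 CPM in libraries labelled pgr5, from 38.1 to 338 CPM in those labelled ndhO and from 42.8 to 376 CPM in those labelled WT. A null allele may leave its transcript in place. Among the WT libraries, NdhO was low in WT 1, at 44.3 CPM, and PGR5 in WT 2 and WT 3, at 46.5 and 42.8 CPM. The cause of these low values was not tested. Each group below is thus a set of libraries that share a label, and each direction is one between labels. Leaf marker genes were taken from those that passed the filter on low counts, so none could be at 0 in all libraries. The 14 mesophyll genes summed to 62346 to 82994 CPM in pgr5, 65136 to 92236 CPM in ndhO and 68971 to 82037 CPM in WT libraries. The 10 bundle sheath genes summed to 18592 to 22772 CPM in pgr5, 13285 to 17508 CPM in ndhO and 13329 to 22345 CPM in WT libraries, and 33 genes of dividing cells to 1310 to 1377 CPM, 1261 to 1292 CPM and 1259 to 1346 CPM in the same order. These last lists did not overlap between pgr5 and ndhO, and their part in the results between those labels was not tested. In such bulk RNA fewer cells of a type and less RNA per cell cannot be told apart.

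No clock or light signalling gene passed edgeR's quasi-likelihood test at an adjusted p of 0.05 between any labels, and neither did any other gene, so the called share of all genes was 0% in each comparison. DESeq2 and limma-voom called 0 of the 78 as well, although DESeq2 called 12, 6 and 16 genes of the whole table in pgr5 against ndhO, pgr5 against WT and ndhO against WT. At an unadjusted p under 0.05, edgeR listed 2 of the 78 for pgr5 against ndhO, where 2.67% of all tested genes did, 0 for pgr5 against WT (2.06%) and 2 for ndhO against WT (2.75%). Among the 63 genes without the false matches these counts were 1, 0 and 1. Groups of libraries did not overlap for 4 of the 63 in pgr5 against ndhO, 1 in pgr5 against WT and 5 in ndhO against WT, set beside 8.25%, 6.32% and 8.63% of all tested genes. The shares of the 63 were 6.35%, 1.59% and 7.94%. Over all 78 genes the counts were 5, 3 and 8 (6.41%, 3.85% and 10.3%), the last above that of the whole table. Such small counts were not tested against the whole table.

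The 16 core clock genes centred on 0. In pgr5 against ndhO the median of their log2 fold changes was 0.02, with 9 genes above and 7 below 0, against a median of 0.01 over all tested genes. In pgr5 against WT it was 0.08, with 11 above and 5 below, against 0.00. In ndhO against WT it was 0.00, with 8 on either side, against -0.00. The median size of the log2 fold change, sign left aside, was 0.09 for the core clock genes in each of the comparisons and 0.19 to 0.20 for all tested genes, which include many of low counts.

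The dawn gene CCA1 (LOC117861503) had 611, 671 and 535 CPM in pgr5 replicates 1, 2 and 3, 506, 731 and 572 CPM in those of ndhO, and 678, 513 and 744 CPM in those of WT. Each label held both high and low libraries, and the ranges overlapped. On the log2 scale pgr5 differed from WT by -0.09 (SE 0.21) and ndhO from WT by -0.10 (SE 0.21), each with an edgeR adjusted p of 1.00. Because these 2 comparisons share the WT libraries, they are not independent of each other.

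LNK proteins act in Arabidopsis as co-activators that work with REVEILLE factors to raise PRR genes in the morning. LNK1-like (LOC117837529) had 959, 1152 and 831 CPM in pgr5 libraries, 1003, 1063 and 948 CPM in ndhO libraries, and 887, 762 and 1189 CPM in WT libraries. LNK2 (LOC117856121) had 399, 529 and 493 CPM in pgr5 libraries, 419, 446 and 422 CPM in ndhO libraries, and 479, 415 and 432 CPM in WT libraries. Neither separated any of the labels, and the WT libraries alone spanned the whole range of LNK1-like.

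A set of 3 genes was described as REVEILLE 6-like, a MYB family related to CCA1 whose Arabidopsis member RVE6 activates evening genes. LOC117866937 had 66.0, 72.9 and 65.7 CPM in pgr5 libraries, 59.3, 80.3 and 67.3 CPM in ndhO libraries, and 51.6, 49.4 and 67.4 CPM in WT libraries. Its WT replicates 1 and 2 were the lowest of the 9, while WT 3 lay among the edited libraries. Between pgr5 and WT it had a log2 fold change of 0.28 (SE 0.16, unadjusted p = 0.12 and adjusted p = 1.00 by edgeR). The other 2 REVEILLE 6-like genes, LOC117852333 at 20.8 to 32.7 CPM and LOC117853788 at 10.8 to 17.9 CPM over all libraries, had no label apart from the rest.

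PRR proteins are repressors of the morning genes. PRR73 (LOC117837064) had 361, 499 and 274 CPM in pgr5 libraries, 291, 289 and 330 CPM in ndhO libraries, and 323, 264 and 304 CPM in WT libraries. The label pgr5 held both the highest library and one of the low ones. PRR73 had the largest log2 fold change of the core genes above 10 CPM for pgr5 against WT, 0.35 (SE 0.21, unadjusted p = 0.13, edgeR), and it ranged from 0.10 to 0.53 over the alternative settings.

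PRR37 is known from sorghum and rice as a repressor of flowering in long days. Its copy LOC117842219 had 211, 325 and 214 CPM in pgr5 libraries, 309, 227 and 249 CPM in ndhO libraries, and 250, 214 and 291 CPM in WT libraries. One library of each label, pgr5 2, ndhO 1 and WT 3, was high, and the ranges of the labels overlapped. A second PRR37 gene (LOC117857816) lay between 2.16 and 2.90 CPM.

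PRR95 (LOC117844604) had 160, 193 and 231 CPM in pgr5 libraries, 166, 173 and 184 CPM in ndhO libraries, and 199, 163 and 180 CPM in WT libraries. APRR3 (LOC117833043), whose Arabidopsis relative protects TOC1 from breakdown, had the smallest ratio of highest to lowest library among the clock genes above 10 CPM, 1.28, with 38.6 to 49.4 CPM. PRR1 (LOC117862454), named for the rice relative of the evening gene TOC1, had 33, 18 and 11 reads in pgr5 libraries, 23, 20 and 24 in ndhO libraries, and 28, 13 and 39 in WT libraries. At this depth its fold changes had a standard error of 0.67 to 0.68, so only very large differences could have been seen.

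**Figure D1:**
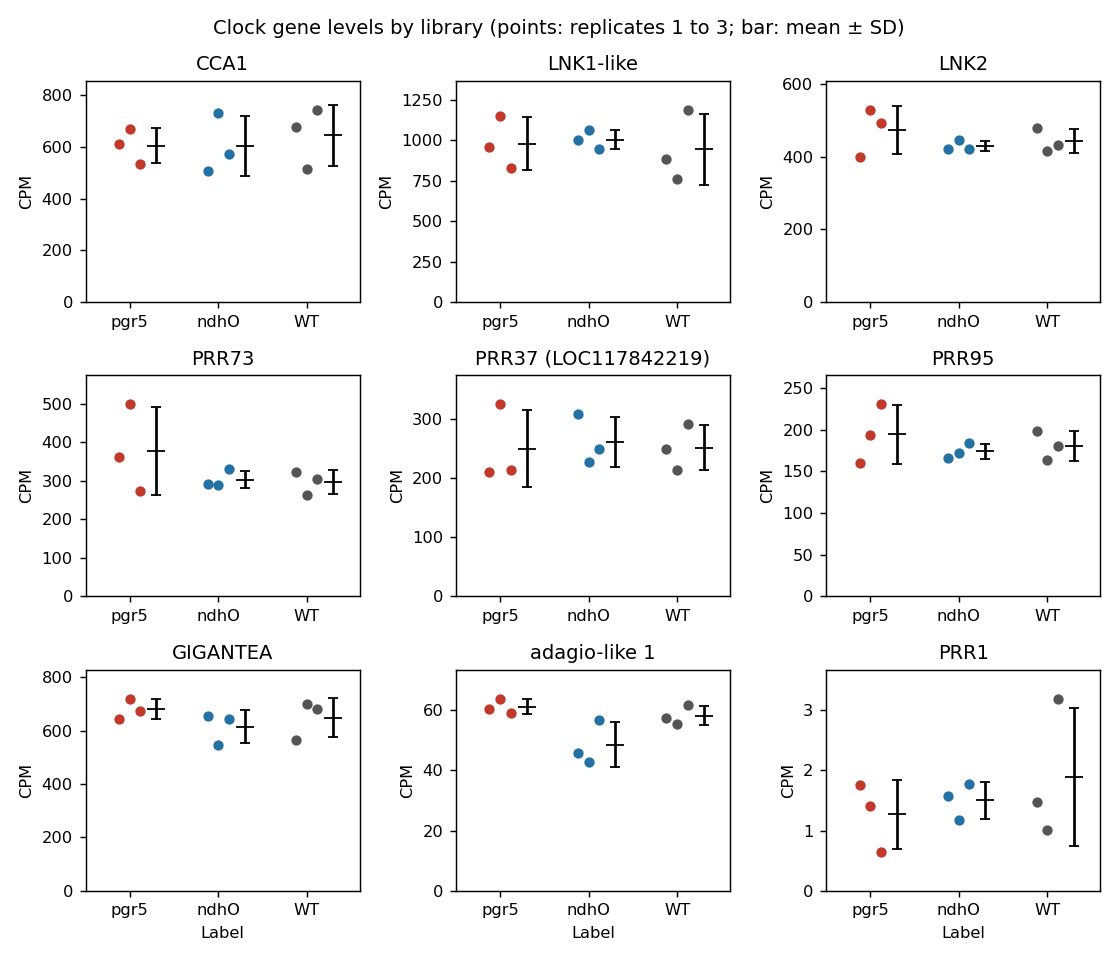
Levels of 9 core clock genes in CPM (vertical axis, from 0) in the libraries labelled pgr5, ndhO and WT; each point is a replicate and each bar the mean ± SD of 3. The points of the labels overlap in every panel but that of adagio-like 1, where the pgr5 libraries lie above the ndhO libraries.

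GIGANTEA (LOC117857839), a scaffold that in Arabidopsis binds adagio family proteins, had 646, 720 and 675 CPM in pgr5 libraries, 657, 545 and 645 CPM in ndhO libraries, and 564, 700 and 681 CPM in WT libraries. Its log2 fold changes lay between -0.07 and 0.14 with a standard error of 0.17. Adagio proteins are blue-light sensors that mark clock proteins for breakdown. Adagio-like 1 (LOC117852630) had 60.5, 63.8 and 59.0 CPM in pgr5 libraries, 45.9, 42.8 and 56.9 CPM in ndhO libraries, and 57.2, 55.5 and 61.8 CPM in WT libraries. The pgr5 and ndhO libraries did not overlap, although ndhO 3 was close to the pgr5 range and inside the WT range. This was the core clock gene with the lowest p: the log2 fold change of pgr5 against ndhO was 0.33 (SE 0.14, unadjusted p = 0.038, edgeR adjusted p = 1.00). Against WT the deposited counts gave it 0.07 for pgr5 (SE 0.14) and -0.26 for ndhO (SE 0.14). The authors' deposited table gave it log2 fold changes of -0.29 for pgr5 (p = 0.022, adjusted p = 0.170) and -0.39 for ndhO (p = 0.0047, adjusted p = 0.725), so the sign for pgr5 and the distance between the edited labels differ from those of the counts.

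Adagio-like 2 (LOC117846591) had 57.0, 71.0 and 49.0 CPM in pgr5 libraries, 53.8, 56.2 and 59.7 CPM in ndhO libraries, and 61.7, 62.2 and 63.4 CPM in WT libraries. All ndhO libraries were below all WT libraries, by a log2 fold change of -0.14 (SE 0.15, edgeR adjusted p = 1.00). Adagio-like 3 (LOC117866417) had 18.6, 15.7 and 16.1 CPM in pgr5 libraries, 19.4, 17.9 and 18.4 CPM in ndhO libraries, and 9.24, 18.2 and 14.0 CPM in WT libraries. The library WT 1 alone was low, and the highest-to-lowest ratio of 2.10 was the only one above 2 among the clock genes of at least 10 CPM.

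The search words found no LUX, ELF3 or ELF4. For comparison, 3 genes named after parts of the evening complex or relatives of those parts were found afterwards by their descriptions. PCL1-like (LOC117858068, PCL1 being another name of LUX) had 0.640, 3.05 and 1.40 CPM in pgr5 libraries, 1.58, 1.46 and 1.55 CPM in ndhO libraries, and 1.78, 1.55 and 0.981 CPM in WT libraries. One ELF4-LIKE 4-like gene (LOC117840261) had 51.6, 58.6 and 55.1 CPM in pgr5 libraries, 52.8, 58.0 and 55.9 CPM in ndhO libraries, and 49.3, 53.1 and 65.5 CPM in WT libraries. The other (LOC117866319) ranged from 1.99 to 6.17 CPM. The labels overlapped for each of these 3 genes.

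**Figure D2:**
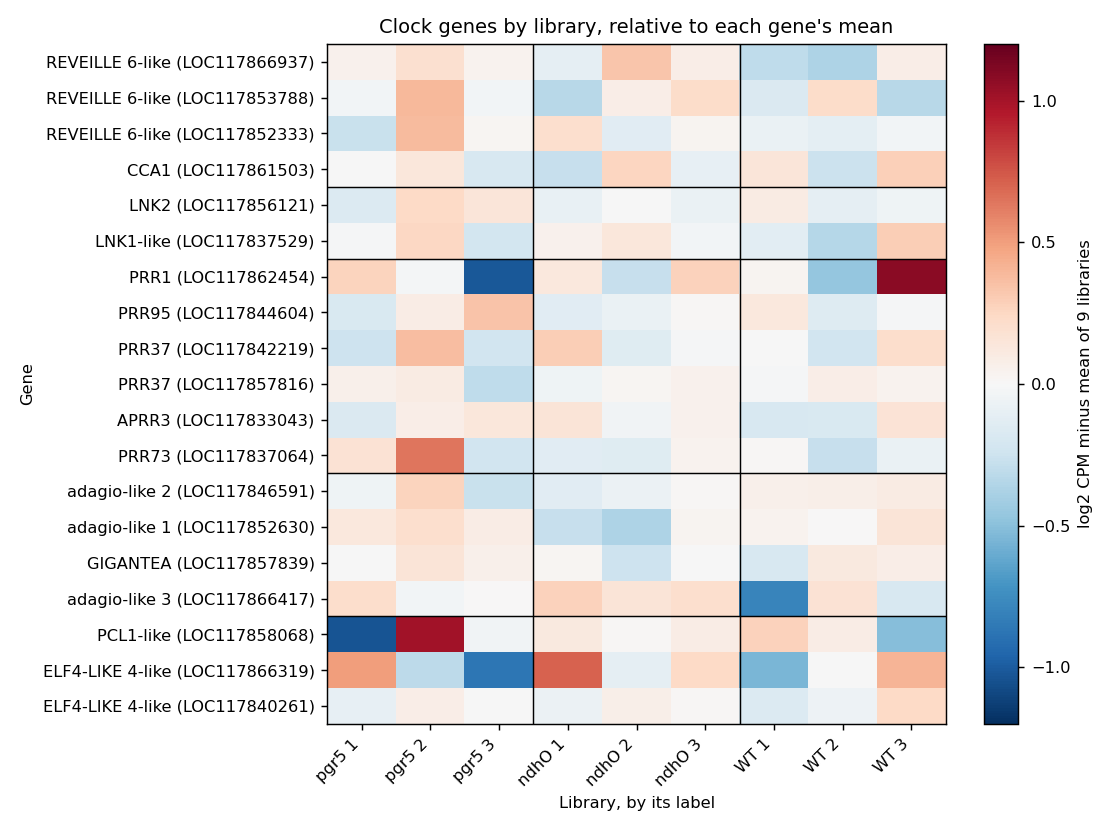
Clock genes in rows and the 9 libraries in columns, coloured by log2 CPM minus the mean of that gene over the 9 libraries. The bottom 3 rows, outside the search words, are genes named after parts of the evening complex or relatives of those parts. Columns of one label do not share a colour, and most of the column pgr5 2 is above the gene means.

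The precision for the core clock can be read from its intervals. Of the 16 genes, 14 had a mean of at least 10 CPM, and standard errors of their log2 fold changes ran from 0.14 to 0.23. All 14 intervals of 95%, taken gene by gene, lay inside -1 and 1 in each comparison, so a 2-fold difference between labels was outside each of them. Their outermost bounds were -0.66 for adagio-like 3 and 0.79 for PRR73 in pgr5 against ndhO, -0.55 for CCA1 and 0.82 for PRR73 in pgr5 against WT, and -0.57 for adagio-like 1 and 0.95 for adagio-like 3 in ndhO against WT. Smaller differences remain possible within these bounds.

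**Figure D3:**
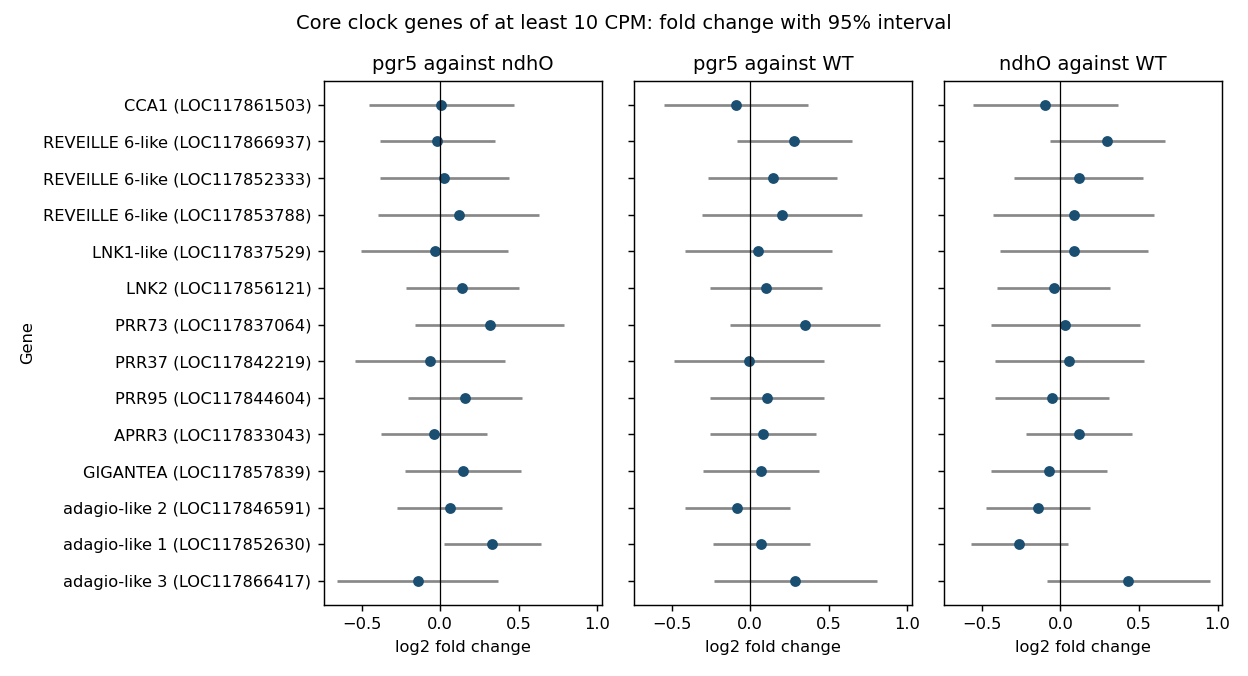
Log2 fold change (points) with its 95% interval (lines) for 14 core clock genes in pgr5 against ndhO, pgr5 against WT and ndhO against WT, from edgeR with all 9 libraries. All but one interval include 0, and none reaches -1 or 1; the exception is adagio-like 1 in pgr5 against ndhO.

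The spread over the libraries was also taken without regard to label. The ratio of the highest to the lowest library had a median of 1.51 over the 14 genes and ran from 1.28 to 2.10, and 1 of 14 (7.14%) passed 2. Over all 9557 genes of at least 10 CPM the median was 1.70, and 30.1% passed 2. Photoreceptors had a median of 1.78, with 3 of 9 above 2, CONSTANS-like genes 1.73 with 2 of 10, and light signalling genes 1.60 with 3 of 18. For the false matches it was 1.60, and for 58 further genes of these pathways 1.59.

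**Figure D4:**
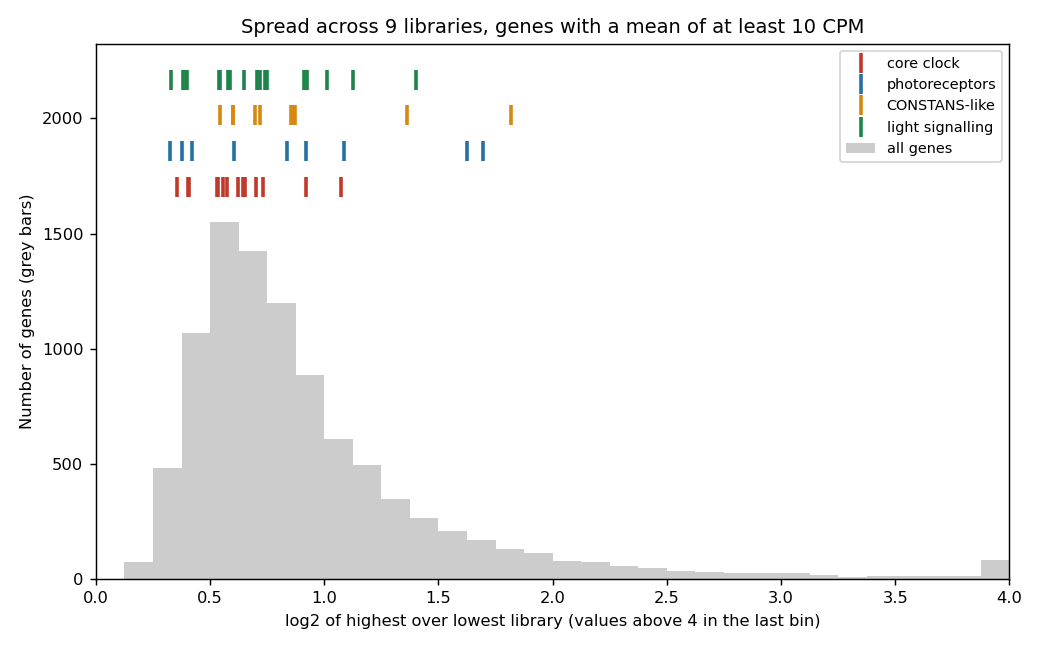
Number of genes (grey bars, vertical axis) by the log2 ratio of their highest to their lowest library (horizontal axis), for genes with a mean of at least 10 CPM; coloured ticks mark single genes of each role, and their height has no meaning. Core clock genes lie between ratios of 1.28 and 2.10, while CONSTANS-LIKE 15-like, a phototropin-1A-like gene and phytochrome A reach above 3.

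Clock genes were also compared with CCA1 library by library. Of 15 core clock genes, LNK1-like had the highest Pearson r with it, 0.69 (exact permutation p = 0.0425, adjusted over the 15 genes 0.623) and a Spearman rho of 0.60 (exact permutation p = 0.0968) over 9 libraries. Without WT 3 and ndhO 1, the libraries farthest from the median of CCA1, r was 0.79 (exact permutation p = 0.0389). By rank the order differed: REVEILLE 6-like LOC117866937 had a rho of 0.63 (r 0.50) and adagio-like 3 a rho of -0.68 (r -0.49). GIGANTEA had an r of -0.42 and a rho of -0.25. None of the 15 passed after adjustment by either measure. The hour at which each library was sampled is not given, and its part in these values was not tested.

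Photoreceptors come next. Phytochrome A senses far-red and very weak light, and its transcript falls in the light in seedlings of many plants. Its gene LOC117836848 had 20.4, 36.7 and 27.2 CPM in pgr5 libraries, 20.7, 15.2 and 17.8 CPM in ndhO libraries, and 46.9, 20.7 and 35.5 CPM in WT libraries. Means were 28.1 ± 8.20 CPM for pgr5, 17.9 ± 2.77 CPM for ndhO and 34.4 ± 13.1 CPM for WT (SD, n = 3 each). The ndhO libraries were the low ones, yet the separation from WT was nil in practice, since ndhO 1 and WT 2 both stood at 20.7 CPM. For ndhO against WT the log2 fold change was -0.94 (SE 0.30), the lowest p of the 78 genes (unadjusted p = 0.011, edgeR adjusted p = 1.00). It was -0.65 without WT 1 and -1.19 without WT 2, and its lowest adjusted p over the alternatives was 0.736. For pgr5 against ndhO, which shares the ndhO libraries, it was 0.65 (SE 0.30, unadjusted p = 0.057).

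Phytochromes B and C are the light-stable phytochromes. Phytochrome B (LOC117836519) had 44.2, 52.7 and 49.9 CPM in pgr5 libraries, 54.6, 42.1 and 49.1 CPM in ndhO libraries, and 44.7, 49.2 and 52.9 CPM in WT libraries. Phytochrome C (LOC117838217) had 61.9, 93.2 and 49.3 CPM in pgr5 libraries, 83.3, 52.1 and 62.0 CPM in ndhO libraries, and 56.6, 57.0 and 80.6 CPM in WT libraries. Both had 1 high library in each label, pgr5 2, ndhO 1 and WT 3, and phytochrome C in particular spread 1.89-fold within the pgr5 label.

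Phototropins are blue-light kinases that move chloroplasts, open stomata and bend shoots toward light. Phototropin-1A-like LOC117867016 had 365, 473 and 199 CPM in pgr5 libraries, 557, 359 and 371 CPM in ndhO libraries, and 374, 363 and 646 CPM in WT libraries. Its near namesake LOC117863612 had 144, 191 and 113 CPM in pgr5 libraries, 229, 155 and 159 CPM in ndhO libraries, and 160, 154 and 240 CPM in WT libraries. The copies shared their order of libraries at both ends, WT 3 being the highest and pgr5 3 the lowest, with ratios of 3.24 and 2.12. The sequences of these copies were not compared, and whether reads were divided between them was not tested, so the likeness of their values is uncertain. Phototropin-2-like (LOC117863156) had 742, 680 and 674 CPM in pgr5 libraries, 656, 807 and 819 CPM in ndhO libraries, and 673, 703 and 655 CPM in WT libraries, and did not follow the other phototropins.

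The libraries pgr5 2, ndhO 1 and WT 3 were the highest 3 for 4 of 9 photoreceptors: both phototropin-1A-like genes, phytochrome B and phytochrome C. They were also the highest 3 for PRR37 (LOC117842219) and for COP1 SUPPRESSOR 2 (LOC117840487), which makes 6 of the 63 genes (9.52%). This set of libraries, picked after the values were seen, was the most frequent of all sets of 3 in the whole table, with 770 genes or 4.28%. The same libraries had the lowest median of 29 photosystem I and antenna genes: after subtraction of each gene's mean log2 CPM, it was -0.22 in pgr5 2, -0.35 in ndhO 1 and -0.46 in WT 3, against -0.08 to 0.39 in the others. What part, if any, these differences have in each other was not tested. They cut across the labels, with 1 library of each.

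**Figure D5:**
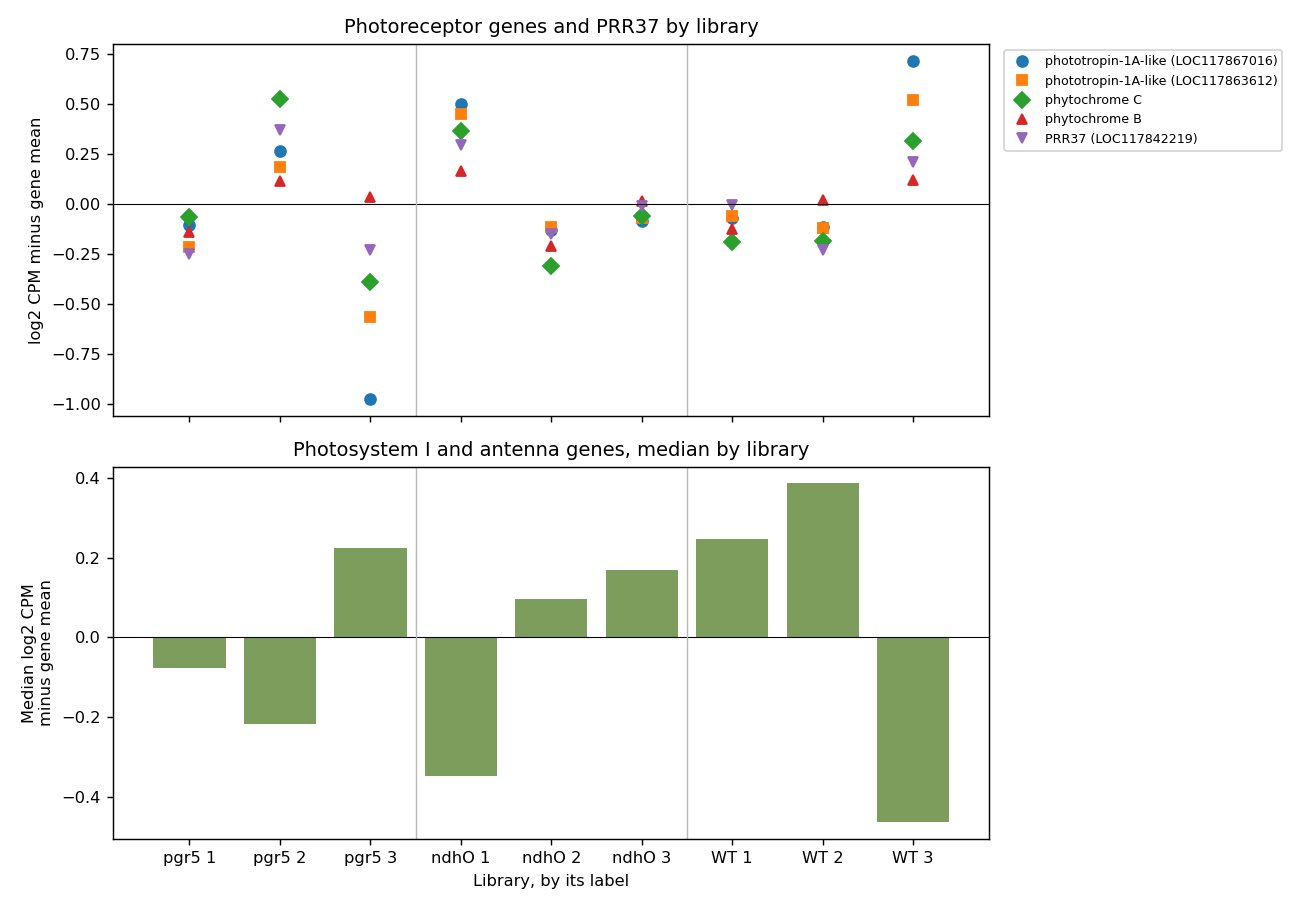
Upper panel: log2 CPM minus the gene's mean over 9 libraries for 4 photoreceptor genes and PRR37, by library. Lower panel: the median of the same quantity over 29 photosystem I and antenna genes. The libraries pgr5 2, ndhO 1 and WT 3 have the highest points above and the lowest bars below. Only genes with these libraries as their highest 3 are plotted above, so the upper pattern follows from that choice. The photoreceptors not plotted did not have these libraries as their highest 3.

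Cryptochromes sense blue light, and its cry-DASH branch repairs DNA in Arabidopsis organelles. Cryptochrome-1-like LOC117864090 had 256, 307 and 229 CPM in pgr5 libraries, 230, 253 and 270 CPM in ndhO libraries, and 250, 233 and 289 CPM in WT libraries. The other cryptochrome-1-like gene (LOC117858546) ranged from 94.4 to 144 CPM, and both had their highest value in pgr5 2 and their lowest in a library of the same label, pgr5 3 for each. Cryptochrome DASH (LOC117854060) ranged from 33.2 CPM in ndhO 1 to 59.2 CPM in pgr5 2. Labels overlapped for all 3.

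Light signalling downstream of the receptors runs through COP1, an E3 ubiquitin ligase that works with SPA proteins in the dark to destroy HY5, a bZIP factor that turns on light-induced genes. COP1 (LOC117839617) had 74.9, 80.7 and 90.7 CPM in pgr5 libraries, 72.7, 85.3 and 91.2 CPM in ndhO libraries, and 78.2, 77.2 and 75.2 CPM in WT libraries. SPA1-RELATED 4-like (LOC117857052) had 95.7, 87.8 and 106 CPM in pgr5 libraries, 64.2, 101 and 95.4 CPM in ndhO libraries, and 97.5, 85.9 and 68.9 CPM in WT libraries. For both, the ranges of the labels overlapped.

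Of 2 genes called SPA1-RELATED 2-like, LOC117848690 had 14.1, 21.3 and 28.5 CPM in pgr5 libraries, 16.4, 17.4 and 17.3 CPM in ndhO libraries, and 21.5, 11.3 and 10.8 CPM in WT libraries. The highest value was in pgr5 3 and the next in WT 1, while the other WT libraries were the lowest. Between pgr5 and WT it had a log2 fold change of 0.55 (SE 0.31, unadjusted p = 0.11, edgeR adjusted p = 1.00). The other gene, LOC117848018, ranged from 62.6 to 82.6 CPM and was likewise highest in pgr5 3. In the RefSeq gene order they lie near each other with 5 genes between. Their sequences were not compared, and whether reads were divided between them was not tested.

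A further 3 genes were described as HY5-like. LOC117857823 had 6.56, 8.06 and 7.24 CPM in pgr5 libraries, 3.50, 6.48 and 5.45 CPM in ndhO libraries, and 5.46, 4.48 and 5.07 CPM in WT libraries. All pgr5 libraries were above all others, though pgr5 1 and ndhO 2 were almost level. On the log2 scale the difference was 0.50 for pgr5 against ndhO (SE 0.28, unadjusted p = 0.11) and 0.54 for pgr5 against WT (SE 0.28, unadjusted p = 0.086), each with an edgeR adjusted p of 1.00, and the pgr5 libraries are common to both. LOC117855991 ranged from 9.41 to 15.8 CPM and LOC117851811 from 1.33 to 6.48 CPM, with the labels overlapping. LOC117851811 had a log2 fold change of 1.59 for pgr5 against WT in the authors' deposited table, with an adjusted p of 0.101, but of -0.14 (SE 0.59) from the deposited counts.

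PIF factors promote growth in shade and darkness and are destroyed after phytochromes see red light. The PIF-like gene LOC117840501, described as PHYTOCHROME INTERACTING FACTOR-LIKE 13-like, had 251, 507 and 257 CPM in pgr5 libraries, 344, 272 and 333 CPM in ndhO libraries, and 298, 380 and 444 CPM in WT libraries. Its highest and lowest libraries both carried the label pgr5, with a ratio of 2.02. The other 3 genes of this name ranged from 19.0 to 35.7 CPM.

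COP1-interacting protein 7-like LOC117837315 had 19.3, 27.4 and 30.8 CPM in pgr5 libraries, 14.1, 16.5 and 24.6 CPM in ndhO libraries, and 18.5, 24.7 and 16.4 CPM in WT libraries, with a log2 fold change of 0.49 for pgr5 against ndhO (SE 0.26, unadjusted p = 0.090, edgeR). The phytochrome-interacting ankyrin-repeat protein 2 gene (LOC117850295) was lower in all pgr5 libraries, at 40.5, 43.8 and 36.7 CPM, against 53.0, 47.5 and 44.9 CPM in ndhO libraries, and had 35.2, 35.3 and 49.5 CPM in WT libraries. Its log2 fold change of -0.26 (SE 0.17) between pgr5 and ndhO was not past the test. Of the 23 light signalling genes, 12 were fitted above 0 in pgr5 against ndhO, 17 in pgr5 against WT and 13 in ndhO against WT, with medians of 0.07, 0.07 and 0.04. Of all 17970 tested genes, 9247, 9087 and 8892 were fitted above 0 in the same order. The counts were not tested against each other. A phytochrome-associated phosphatase-like gene (LOC117862429) and PHYTOCHROME KINASE SUBSTRATE 4 (LOC117854785) were under 2 CPM in each library.

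CONSTANS-like (COL) proteins carry B-box zinc fingers, and their founder CONSTANS links day length to flowering in Arabidopsis. COL5-like (LOC117853320) had 675, 959 and 528 CPM in pgr5 libraries, 627, 606 and 702 CPM in ndhO libraries, and 847, 613 and 830 CPM in WT libraries. COL3-like (LOC117865803) had 316, 365 and 241 CPM in pgr5 libraries, 316, 345 and 322 CPM in ndhO libraries, and 332, 278 and 349 CPM in WT libraries. In both, the pgr5 label held the highest library, pgr5 2, and the lowest, pgr5 3. COL16-like (LOC117838477) had 279, 252 and 201 CPM in pgr5 libraries, 168, 263 and 250 CPM in ndhO libraries, and 307, 208 and 218 CPM in WT libraries, again with full overlap.

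COL15-like (LOC117862038) had the largest spread of the 63 genes above 10 CPM, 3.53-fold, with 13.9, 18.5 and 5.26 CPM in pgr5 libraries, 12.3, 9.98 and 11.9 CPM in ndhO libraries, and 9.66, 12 and 15.4 CPM in WT libraries. This spread lay within the pgr5 label. A COL16-like gene (LOC117851454) also spread widely, 2.57-fold, from 6.84 CPM in pgr5 3 to 17.6 CPM in WT 1. COL13-like (LOC117843446) had 4.27, 4.54 and 6.08 CPM in pgr5 libraries, 8.85, 5.25 and 5.67 CPM in ndhO libraries, and 4.25, 4.48 and 3.84 CPM in WT libraries. Its ndhO libraries were above its WT libraries, with a log2 fold change of 0.65 (SE 0.30, unadjusted p = 0.054, edgeR adjusted p = 1.00). COL9-like (LOC117836200) also had all ndhO libraries above all WT libraries, at 6.17, 6.60 and 6.48 CPM against 4.57, 5.18 and 1.55 CPM, and above the pgr5 libraries at 6.14, 4.23 and 5.55 CPM. Its WT 3 value rested on 19 reads, and ndhO 1 and pgr5 1 were almost level. Its log2 fold change was 0.76 for ndhO against WT (SE 0.40, unadjusted p = 0.086, edgeR). For pgr5 against ndhO it was -0.27 (SE 0.40, unadjusted p = 0.51, edgeR), and neither passed after adjustment. Over the 13 genes the log2 fold changes had a median of -0.08 for pgr5 against ndhO, -0.06 for pgr5 against WT and -0.11 for ndhO against WT.

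The flowering regulators matched through the words EARLY FLOWERING. PHOTOPERIOD-INDEPENDENT EARLY FLOWERING 1 (LOC117833521), a chromatin remodeller, had 53.5, 69.7 and 78.7 CPM in pgr5 libraries, 57.3, 61.5 and 56.3 CPM in ndhO libraries, and 76.2, 68.3 and 70.4 CPM in WT libraries. The ndhO libraries were below the WT libraries by a log2 fold change of -0.30 (SE 0.15, unadjusted p = 0.085, edgeR adjusted p = 1.00). EARLY FLOWERING 5 (LOC117845574) ranged from 22.9 to 32.9 CPM with overlapping labels.

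Single libraries stood out more than labels. The library pgr5 2 was the highest of the 9 for 24 of the 63 genes (38.1%), against 11.5% of all tested genes, and pgr5 3 was the lowest for 15 (23.8%), against 16.1%. The median of the core clock genes, as log2 CPM relative to each gene's mean, was -0.01, 0.20 and -0.01 in pgr5 1, 2 and 3, -0.07, -0.06 and 0.03 in ndhO 1, 2 and 3, and -0.01, -0.14 and 0.08 in WT 1, 2 and 3. Replicates of one label thus differed by more than the largest median fold change between labels, 0.08.

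Some of the lowest p-values belonged to false matches. A YUCCA10 gene (LOC117855769) had 1.97, 2.19 and 1.93 CPM in pgr5 libraries, 2.13, 3.33 and 3.54 CPM in ndhO libraries, and 0.945, 1.78 and 0.981 CPM in WT libraries, a log2 fold change of 1.28 for ndhO against WT (SE 0.48, unadjusted p = 0.023). Another, LOC117855329, had a log2 fold change of -0.37 for pgr5 against ndhO (SE 0.16, unadjusted p = 0.044). The auxin efflux carrier 5c gene (LOC117860117) had 26, 32 and 16 reads in pgr5 libraries, 11, 27 and 8 in ndhO libraries, and 10, 0 and 6 in WT libraries, with a log2 fold change of 2.2 for pgr5 against WT (SE 1.12, unadjusted p = 0.077). Each had an edgeR adjusted p of 1.00. The silicon transporter LSI2-like LOC117838925 had a log2 fold change of -0.50 for pgr5 against ndhO (unadjusted p = 0.053). An LSI3-like gene (LOC117841617) and a POLLUX gene (LOC117856733) spread 2.40-fold and 2.34-fold over the libraries, and both were lowest in pgr5 3. The largest false matches by CPM, LSI2-like LOC117836083 at 451 to 688 CPM and the K+ efflux antiporters 3 and 2 at 322 to 517 and 231 to 319 CPM, overlapped between labels except that antiporter 2 was higher in all pgr5 than in all ndhO libraries.

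Another 83 genes of the same pathways, chosen by other words such as B-box, FAR1, TIME FOR COFFEE, UVR8 and HEADING DATE, were treated alike. None passed edgeR's adjusted test. At an unadjusted p under 0.05 there were 2 higher for pgr5 against ndhO, 1 lower for pgr5 against WT and 0 for ndhO against WT, which is 2.41%, 1.2% and 0% of the list beside 2.67%, 2.06% and 2.75% of all tested genes. The median log2 fold changes were 0.03, 0.01 and 0.02. The BBX24-like gene LOC117864280, a B-box relative of light repressors, had 466, 521 and 398 CPM in pgr5 libraries, 511, 573 and 497 CPM in ndhO libraries, and 457, 471 and 484 CPM in WT libraries. Its ndhO libraries were all above its WT libraries, by 0.16 on the log2 scale (SE 0.16, edgeR adjusted p = 1.00). TIME FOR COFFEE-like (LOC117845150), a clock regulator in Arabidopsis, had 429, 515 and 419 CPM in pgr5 libraries, 419, 380 and 386 CPM in ndhO libraries, and 466, 400 and 438 CPM in WT libraries. A root phototropism 2-like gene (LOC117862879), a partner of phototropins, lay between 384 and 469 CPM, with all pgr5 libraries, at 408.7, 392.1 and 384.1 CPM, below all ndhO libraries, at 428, 463 and 423 CPM, and the WT libraries, at 469.4, 392.9 and 392.5 CPM, across both. Its log2 fold change between pgr5 and ndhO was -0.15 (SE 0.15, edgeR adjusted p = 1.00).

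The authors' deposited table, made from values they had corrected, called 0 of the 78 genes for pgr5 against WT, where it called 451 genes in all (2.51%), and 0 for ndhO against WT, where it called none. Unadjusted p-values under 0.05 in the authors' deposited table numbered 6 of the 78 (7.69%) for pgr5, where 20.5% of all genes had one, and 7 (8.97%) for ndhO, where 6.75% did. The lowest adjusted p among the 78 in the authors' deposited table was 0.101 for pgr5 and 0.725 for ndhO. Of those 6 genes for pgr5, 3 had the opposite sign in the fit to the deposited counts, namely the HY5-like gene LOC117851811, adagio-like 1 and the PIF-like gene LOC117846972, and of the 7 for ndhO 0 did. In the authors' deposited table the corrected value of ndhO 3 equalled the mean of ndhO 1 and ndhO 2 in all 17987 genes, so only 2 ndhO libraries inform those values.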

How the data were processed

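The authors deposited 1 table with whole-number counts per gene for 9 libraries, per the file headers, and these counts were used as deposited. It also holds the authors' corrected log2 CPM and log2 fold changes, and, per the file headers, t and B statistics treated as a score, and p-values and adjusted p-values. Tools listed by the submitters' processing notes are StringTie 2.2.3, limma 3.62.2, edgeR 4.4.1, Trim Galore 0.6.7 and FastQC 0.11.9. The sources used here give no aligner or genome build and do not say what was corrected. The library kit is stranded, per the labels' protocols. The edited columns carry an extra number of unstated meaning and were matched by group and last number.

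Tests used edgeR 4.0.16 in R 4.3.3: TMM scaling, the default filter, and quasi-likelihood tests in 1 fit of 9 libraries with genotype as the term, adjusted by Benjamini-Hochberg over 17970 genes at 0.05. CPM used TMM-scaled sizes, and log2 CPM a prior count of 2. CPM is not corrected for transcript length, so levels are compared within a gene only. Alternatives used DESeq2 1.42.0 and limma-voom (limma 3.58.1), other scalings and filters, 2 genotypes alone, a replicate block and each library left out. The edgeR and correlation scripts were tested on simulated data. No exact permutation test was run between labels, since 3 libraries against 3 cannot reach a p below 0.1.

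Named genes were all core clock genes of at least 1 CPM, the 3 of highest CPM in each other role and in the further list, the 5 lowest p in each comparison and the 10 largest library ratios of genes of at least 10 CPM. Others were chosen after their values were seen. The genes, lists and roles were chosen with earlier results of these data known. All 78 identifiers matched RefSeq genes of GCF_005286985.2, used only for gene order. P-values between labels set a difference against the spread between libraries called biological replicates in the labels. Those of the correlations come from permuting the 9 libraries without regard to label.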

Additional observations from a re-analysis of the deposited data

How the results depend on the processing

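None of the 78 genes was called by edgeR, DESeq2 or limma-voom under any alternative run. The fold changes of the 5 genes of lowest p in each comparison, 15 in all, kept their sign in all 17 alternatives each. They were picked by their p in the same counts, so their steady sign says little about the other genes. Over all genes, DESeq2 called 12 for pgr5 against ndhO (9 higher, 3 lower), 6 for pgr5 against WT (3 higher, 3 lower) and 16 for ndhO against WT (7 higher, 9 lower), where edgeR called 0; the cause was not tested. The core clock median ranged from -0.07 to 0.08 for pgr5 against ndhO, 0.02 to 0.14 for pgr5 against WT and -0.03 to 0.03 for ndhO against WT. Leaving out single libraries moved the number of all genes with an unadjusted p under 0.05 by more than 1.5 times in places: 839 without pgr5 1 for pgr5 against ndhO, where it was 480, 644 without WT 1, 583 without WT 2 and 612 without pgr5 1 for pgr5 against WT, where it was 371, and 869 without WT 2 for ndhO against WT, where it was 494. Among the 78 genes it ran up to 7 for pgr5 against ndhO, without pgr5 1, and from 0 without WT 1 to 5 without WT 2 for ndhO against WT.

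Same-numbered libraries had correlations of deviations from -0.38 to 0.06, so no pairing by number was seen. Differently numbered libraries were not set beside them, and whether a weaker pairing exists was not tested. With the replicate number as a block 0 of the 78 genes and 0 of all genes were called, and the core clock median was 0.01, 0.08 and 0.00 in the same order. At 3 libraries a label and a common coefficient of variation of 0.383, genes under 10 CPM had wide errors. Promoter motifs were not searched because no sequence was at hand.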

Other observations

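Among the 83 further pathway genes, some florigen relatives had wide ranges, and those named here were picked after their values were seen. Florigens are mobile proteins made in leaves that start flowering at the shoot tip, and HEADING DATE 3A is the one known from rice. HEADING DATE 3A-like LOC117850113 had 44.5, 0.704 and 0.292 CPM in pgr5 replicates 1, 2 and 3, 7.13, 21.7 and 16.8 CPM in those of ndhO, and 1.05, 9.82 and 11.7 CPM in those of WT, a 152-fold range. Another HEADING DATE 3A-like gene, LOC117855226, had 348, 0 and 0 reads in pgr5 libraries, 111, 140 and 46 in ndhO libraries, and 0, 21 and 42 in WT libraries. FLOWERING LOCUS T-like LOC117844211 had the reverse order, with 0, 54 and 95 reads in pgr5 libraries, 0, 0 and 3 in ndhO libraries, and 49, 4 and 0 in WT libraries.

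The libraries pgr5 2, pgr5 3 and WT 1 were thus the lowest 3 for these HEADING DATE 3A-like genes and the highest 3 for this FLOWERING LOCUS T-like gene. The other 5 of 8 genes described as HEADING DATE 3A or FLOWERING LOCUS T did not share this order. FLOWERING LOCUS T-like LOC117855310 had 17.0, 28.0 and 15.5 CPM in pgr5 libraries, 10.6, 32.3 and 28.5 CPM in ndhO libraries, and 8.45, 25.3 and 29.1 CPM in WT libraries. They were also the lowest 3 for the NdhO transcript, at 20.5, 48.4 and 44.3 CPM against 230.0 to 617 CPM in the others. Over all tested genes, 3.05% had their lowest 3 and 2.53% their highest 3 values in these libraries. They were the highest 3 for 6 of the 63 clock and light genes (9.52%), among them PRR95, LNK2 and both SPA1-RELATED 2-like genes, and the lowest 3 for 0. These SPA1-RELATED 2-like genes lie near each other, and whether reads were divided between them was not tested. Of the 83 further pathway genes, 3 (3.61%) had their highest 3 and 3 (3.61%) their lowest 3 values in the same libraries. By label, the first HEADING DATE 3A-like gene had a log2 fold change of 1.04 for pgr5 against WT (SE 1.55, edgeR adjusted p = 1.00). The pattern came from these same data, and what links these transcripts was not tested.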
